A study of Mus musculus with 4 samples.

Results

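The transcripts of 10 genes that modify, fold, trim or crosslink collagen were followed in preparations of endothelial cells (ECs) of the regenerating mouse lung. The genes were taken by their symbols and are the prolyl hydroxylases P4ha1, P4ha2 and P4ha3, the lysyl hydroxylases Plod1 and Plod2, the chaperones Serpinh1 and Fkbp10, the lysyl oxidases Lox and Loxl1, and the procollagen processing enhancer Pcolce. They are 10 of the 24063 gene symbols in the tables, and all 10 passed the filter on low counts, which left 16208 genes for testing. Cells were prepared with CD31 antibody and magnetic beads from lungs of C57BL6J mice aged 8 weeks. One group had undergone left unilateral pneumonectomy (PNX) 7 days earlier and the other a sham thoracotomy in which no lung was removed. Each group had 2 libraries, and the cells of 2 mice were pooled for each of them. The p-values thus measure the spread between 4 pools, which within a group was not far above counting noise. No transgene or deletion is named for the mice.

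Collagen chains are modified while they are threaded into the endoplasmic reticulum. Prolyl hydroxylases form the hydroxyproline that keeps the helix stable at body temperature, and lysyl hydroxylases form the hydroxylysine on which sugars are placed and from which the firmest crosslinks are made. Chaperones then hold the folded molecule until it is secreted, proteases trim its ends, and copper-dependent lysyl oxidases link the fibres, and elastin too, outside the cell. Fibroblasts and smooth muscle cells are the best known sources of these enzymes in the lung, and ECs make them for the collagen of their basement membrane.

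With 1 transcript per gene the libraries held between 41367438 and 50952879 counts, so that 3 counts, the smallest level taken as detected, equal 0.0589 to 0.0725 CPM, counts scaled to the library total (counting error only). Several cell type markers moved between the groups. The summed normalized counts of 12 endothelial markers went from 551913 and 557598 in the sham libraries to 462218 and 463893 after PNX, those of 5 mesothelial markers from 7212 and 7338 to 18956 and 19138, and those of 6 macrophage markers from 20178 and 19888 to 46746 and 46951. Epithelial transcripts were abundant in the sham libraries. The surfactant gene Sftpc had a mean of 2893 FPKM (fragments scaled to transcript length and library total) against 373.8 for Pecam1, the gene of CD31. The 6 epithelial markers summed to 227918 and 228282 in sham and to 150021 and 149004 after PNX. The mice are described as male, yet the 44 genes of chromosome Y in the tables had 0 counts in each library, while Xist had between 29890 and 36875. Since this was so in all 4 libraries, no result could be given without them. In such bulk samples more cells of a type and more RNA per cell cannot be told apart.

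The transcripts of the collagen-modifying genes were higher after PNX in most cases, but by very different amounts. To be called, a gene had to change by more than 1 on the log2 scale and to reach an adjusted p below 0.01, where p comes from the quasi-likelihood test of edgeR and is adjusted after Benjamini and Hochberg over all genes tested. P4ha3, Loxl1 and Fkbp10 rose past both thresholds, which is 3 of 10 genes against 5.9% of all genes called higher, and none of the 10 was called lower, against 1.66% of all genes. With the threshold on adjusted p alone, 8 of the 10 were higher and 0 lower, where 29.3% of all genes were higher and 27.8% lower. The remaining genes were P4ha1 and P4ha2, which make the main prolyl hydroxylase subunits. The median log2 fold change of the 10 genes was 0.65, and that of all genes tested was 0.00. When libraries were scaled to the 12 endothelial markers in place of TMM, the median of all genes moved to 0.26. That of the 10 genes moved to 0.91, and Serpinh1 and Pcolce were called as well, 5 genes in all. Of all genes tested 8.19% were then called higher (1328 genes) and 0.518% lower (84 genes), against 957 and 269 with TMM. The 12 markers did not move alike, with log2 fold changes under TMM from -0.54 to 0.11 and -0.01 for Pecam1. This scaling thus depends on the markers chosen.

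**Figure D1:**
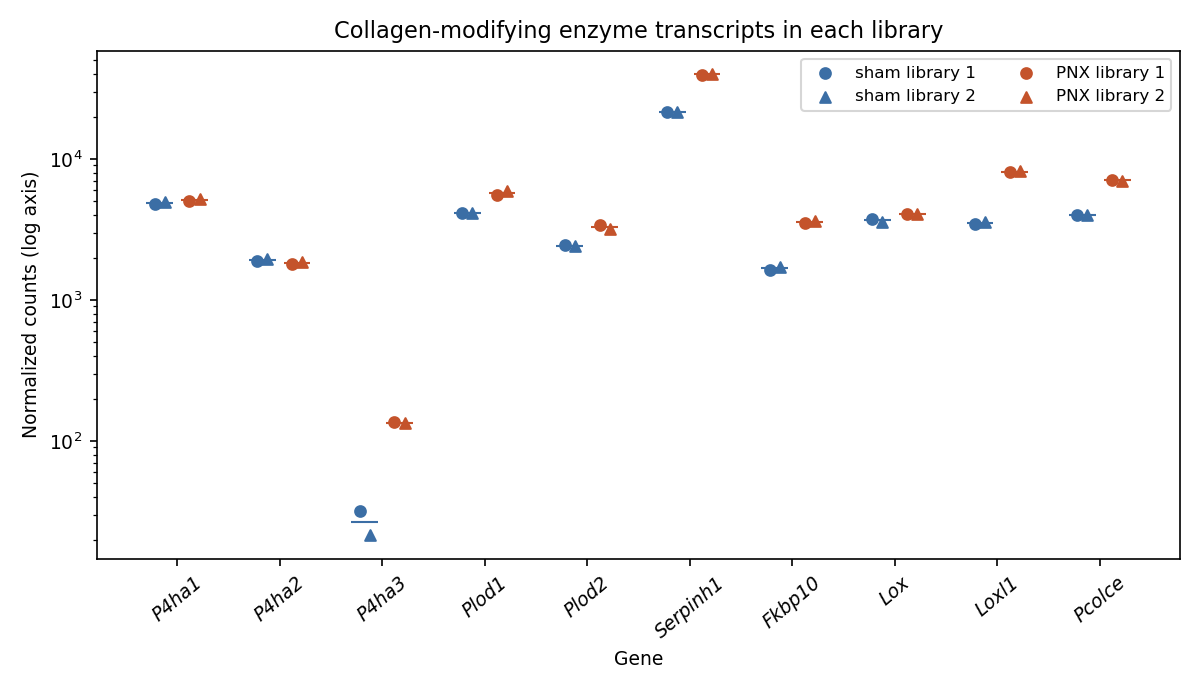
Normalized counts (log axis) of the 10 genes in the 2 sham and 2 PNX libraries, with a horizontal line at each group mean. P4ha1 and P4ha2 lie at nearly the same height in both groups, P4ha3 is the lowest gene and Serpinh1 the highest, and the 2 libraries of a group lie close together except for P4ha3 in sham.

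The prolyl hydroxylase is a tetramer in which an alpha subunit, encoded by P4ha1, P4ha2 or P4ha3, carries the catalytic site. P4ha1 (chromosome 10, 59323197 to 59373304, coordinates of GRCm38) encodes the main alpha subunit of most cells. Normalized counts were 4826 and 4964 in sham and 5066 and 5171 after PNX. Both PNX libraries were higher, but the log2 fold change of 0.06 (edgeR adjusted p = 0.0305, standard error 0.027) missed the threshold on p, with a 95% interval from 0.01 to 0.12. Under scaling to the endothelial markers it was 0.32 (edgeR adjusted p = 1.89e-12) and passed on p, where the median of all genes was 0.26. P4ha2 (chromosome 11, 54100924 to 54131668) had 1888 and 1947 normalized counts in sham and 1810 and 1864 after PNX. Its log2 fold change was -0.06 (edgeR adjusted p = 0.155, standard error 0.039), with a 95% interval from -0.14 to 0.02. Under scaling to the endothelial markers the sign of P4ha2 turned, to 0.20 (edgeR adjusted p = 2.87e-05), which is below the shift of 0.26 in the median of all genes.

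P4ha3 (chromosome 7, 100285489 to 100319701) encodes the third alpha subunit and was scarce. The sham libraries held 35 and 21 counts, the PNX libraries 138 and 120. After normalization these were 31.7 and 21.4 against 136 and 134, so that the groups were far apart, while the sham libraries differed from each other by more, for their level, than in any other of the 10 genes. The log2 fold change was 2.32 (edgeR adjusted p = 3.88e-16, standard error 0.20), higher than in 98.15% of the genes tested. Leaving out one library at a time gave values from 2.08 to 2.65. Per length P4ha3 stayed a small part of the alpha subunit transcripts. Of the summed FPKM of the 3 genes it made up 0.660% and 0.434% in sham and 2.73% and 2.63% after PNX, whereas P4ha1 held 58.7% and 58.8%, then 59.6% and 59.4%.

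Promoter windows of RefSeq (GRCm38.p6) were at hand for 6 of the 10 genes, P4ha1, P4ha2, P4ha3, Plod1, Serpinh1 and Pcolce. The sequences of 4 of them are given so that the alpha subunit genes, which differed so much in response, can be read beside Serpinh1, the most abundant of the genes that rose. Each is on the strand of its gene, 5′ to 3′, and ends where the RefSeq gene span begins. They lie at chr10:59323046-59323196 for P4ha1, chr11:54100674-54100923 for P4ha2 and chr7:100285270-100285488 for P4ha3, all on the plus strand, and at chr7:99353240-99353489 on the minus strand for Serpinh1. Capitals mark the core letters bound by hypoxia-inducible factors, ACGTG or GCGTG, on either strand.
P4ha1: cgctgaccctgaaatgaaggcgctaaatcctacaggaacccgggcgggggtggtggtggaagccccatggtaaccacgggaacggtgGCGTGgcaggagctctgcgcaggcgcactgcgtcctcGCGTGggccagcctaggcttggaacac
P4ha2: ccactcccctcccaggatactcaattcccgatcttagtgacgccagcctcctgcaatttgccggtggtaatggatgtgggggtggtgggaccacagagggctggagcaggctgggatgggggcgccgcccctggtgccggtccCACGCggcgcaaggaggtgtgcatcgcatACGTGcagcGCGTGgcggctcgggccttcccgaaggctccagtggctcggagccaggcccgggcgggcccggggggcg
P4ha3: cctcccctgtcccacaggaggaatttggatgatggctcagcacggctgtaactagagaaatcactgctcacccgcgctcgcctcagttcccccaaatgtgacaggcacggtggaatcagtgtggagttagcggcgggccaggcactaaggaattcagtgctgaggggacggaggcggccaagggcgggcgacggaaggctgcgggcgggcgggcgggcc
Serpinh1: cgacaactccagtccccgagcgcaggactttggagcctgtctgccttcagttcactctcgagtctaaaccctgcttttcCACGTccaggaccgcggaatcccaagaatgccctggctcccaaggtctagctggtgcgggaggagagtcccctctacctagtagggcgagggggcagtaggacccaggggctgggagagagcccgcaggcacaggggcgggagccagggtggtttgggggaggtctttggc
The search used 250 bases before the start site of each promoter window. Of these only 151 in P4ha1, 219 in P4ha3 and 132 in Pcolce lie before the RefSeq gene span. ACGTG was found in 3 of the 6 promoters (P4ha1, P4ha2 and Serpinh1) and in 16.6% of all 32851 promoter windows. GCGTG was found in 4 of the 6 (P4ha1, P4ha2, Plod1 and Pcolce) and in 28.2% of all. The ACGTG of P4ha1, downstream of the stretch shown, and the GCGTG of Pcolce lie within the RefSeq gene spans. P4ha3 held neither. The letters GGAATG, the core that TEAD factors bind, were in 0 of the 6 and in 12.6% of all, and the paired heat shock element GAANNTTC in 0 of the 6 and in 6.69% of all. The TATA box TATAAA was in 1 of the 6, Plod1, and in 12.4% of all. All were searched on both strands, and no matches overlapped in the 6 windows. These are matches of letters and not sites of binding. Before the RefSeq gene span, G and C made up 51.5% (Pcolce) to 70% (P4ha2) of the bases in these 6 windows. The median over all 250-base windows was 52.4%. The shares of windows with a match were not adjusted for this content.

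Of the lysyl hydroxylases, Plod1 encodes the enzyme that modifies lysines within the helix and Plod2 the one that modifies those of the end regions, the telopeptides. Plod1 (chromosome 4, 147909753 to 147936776) had 4116 and 4134 normalized counts in sham and 5563 and 5968 after PNX. Both PNX libraries were above both sham libraries, with a log2 fold change of 0.48 (edgeR adjusted p = 3.67e-23, standard error 0.028). Plod2 (chromosome 9, 92539636 to 92608428) had 2437 and 2400 in sham and 3378 and 3206 after PNX, again without overlap. Its log2 fold change was 0.45 (edgeR adjusted p = 1.35e-18, standard error 0.033), and its gene span overlaps that of the noncoding RNA gene B430319G15Rik. Plod3, the related gene that was not among the 10, rose by 0.32 (edgeR adjusted p = 4.21e-18). The makeup of the family changed little. Plod1 held a mean of 32.8% of the summed FPKM of the 3 genes in sham and 34.9% after PNX, Plod2 16.9% and 17.5%, and Plod3 50.3% and 47.6%.

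The transcripts of both chaperones rose, one of them the most abundant of the 10. Serpinh1 (chromosome 7, 99345375 to 99353239) encodes HSP47, which binds folded collagen in the endoplasmic reticulum. Normalized counts were 21569 and 21664 in sham and 39578 and 40206 after PNX, a 1.85-fold rise and a log2 fold change of 0.88 (edgeR adjusted p = 3.75e-47, standard error 0.018). The change was far larger than the spread between libraries, but it fell short of the fold threshold. Per length Serpinh1 stood at 122 and 123 FPKM in sham and at 226 and 229 FPKM after PNX. In the sham libraries it was above 98.11% of the genes tested on that scale.

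Fkbp10 (chromosome 11, 100415694 to 100424840) encodes FKBP65, a prolyl isomerase that works with HSP47 and is needed for the hydroxylation of telopeptide lysines. It had 1627 and 1723 normalized counts in sham and 3539 and 3646 after PNX. The groups were well apart, with a log2 fold change of 1.10 (edgeR adjusted p = 1.25e-36, standard error 0.035) and a 2.15-fold rise. Tested against a log2 fold change of 1 itself, with edgeR's glmTreat, Fkbp10 had an adjusted p of 0.0142 and was not called. The gene span overlaps that of Nt5c3b.

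Lox and Loxl1 encode secreted amine oxidases that start the crosslinks of collagen and elastin, and Loxl1 is known above all for elastic fibres. Lox (chromosome 18, 52516060 to 52529867) had 3750 and 3594 normalized counts in sham and 4091 and 4104 after PNX. The PNX libraries were higher, but only by a log2 fold change of 0.16 (edgeR adjusted p = 4.1e-06, standard error 0.029). Loxl1 (chromosome 9, 58287723 to 58313212) rose from 3471 and 3565 to 8084 and 8161 normalized counts. This was a 2.31-fold rise and a log2 fold change of 1.21 (edgeR adjusted p = 1.17e-45, standard error 0.026). Per length Loxl1 was already above Lox in sham, at 14.1 and 14.5 FPKM against 10.4 and 9.97 FPKM. After PNX it stood at 33.1 and 33.4 FPKM, against 11.4 FPKM for Lox in both libraries.

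Within the family of 5 lysyl oxidase genes the share of Lox was lower after PNX, while those of Loxl1 and Loxl2 were higher, as Lox rose less than they did. Lox made up 30.6% and 29.3% of their summed FPKM in sham and 18.1% and 17.9% after PNX. Loxl1 went from 41.6% and 42.6% to 52.4% and 52.2%, and Loxl2, an oxidase tied to type IV collagen, from 13.9% and 14.5% to 19.3% and 19.4%. Loxl2 was called higher by itself, with a log2 fold change of 1.34 (edgeR adjusted p = 5.75e-43). These shares come from whole libraries and may hold transcripts of several cell types.

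Pcolce (chromosome 5, 137605105 to 137611522) encodes a glycoprotein that binds the end of procollagen and speeds its cleavage by the protease of Bmp1. It had 3995 and 4041 normalized counts in sham and 7140 and 6999 after PNX, a 1.76-fold rise and a log2 fold change of 0.82 (edgeR adjusted p = 1.4e-36, standard error 0.026). Bmp1 itself rose by a log2 fold change of 0.75, counted on a RefSeq transcript listed as noncoding. Pcolce2, which encodes a second enhancer, had the opposite sign, with a log2 fold change of -0.24 (edgeR adjusted p = 8.87e-16), which turned to 0.02 (edgeR adjusted p = 0.444) under the endothelial marker scaling. Pcolce2 was also the more abundant of the pair on the FPKM scale, at a mean of 87.9 against 35.5 FPKM in sham and 74.7 against 62.8 FPKM after PNX.

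**Figure D2:**
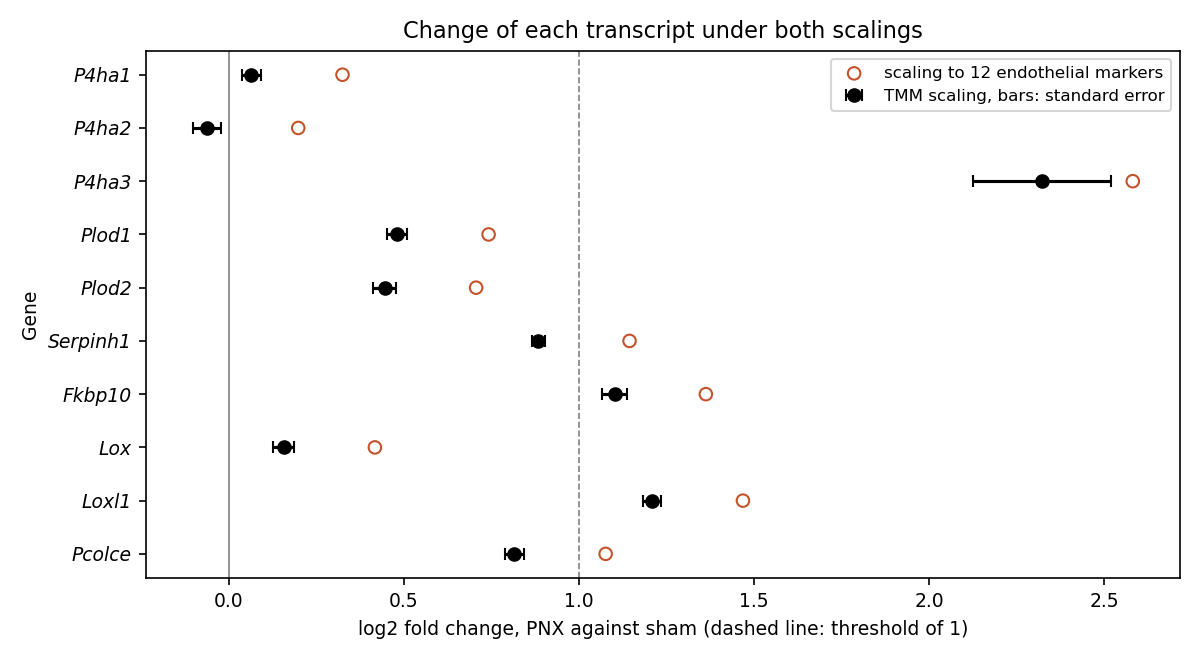
Log2 fold change of each of the 10 genes, PNX against sham, with TMM scaling (filled, bars give the standard error) and with scaling to 12 endothelial markers (open). P4ha3, Fkbp10 and Loxl1 lie beyond the dashed threshold of 1 under TMM, Serpinh1 and Pcolce cross it only under the marker scaling, and P4ha2 changes sign.

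In the sham libraries, which also held epithelial and fibroblast transcripts, the genes were ordered per length by mean FPKM. The order was Serpinh1 (122 FPKM), Pcolce (35.5), Plod1 (17.2), P4ha1 (16.4), Loxl1 (14.3), P4ha2 (11.4), Lox (10.2), Plod2 (8.85), Fkbp10 (8.75) and P4ha3 (0.153). Plod2 and Fkbp10 did not differ beyond the spread of the libraries, which was 8.79 to 8.92 FPKM for Plod2 and 8.50 to 9.003 FPKM for Fkbp10. After PNX the mean of Fkbp10 was 18.9 FPKM and that of Plod2 12.1 FPKM. The most abundant and the scarcest gene thus kept their places while Loxl1, with 33.2 FPKM, moved to the third.

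Serpinh1, Lox, P4ha2, Plod2 and Fkbp10 had more than 1 RefSeq transcript in the tables, with nearly equal counts. The 4 transcripts listed for Serpinh1 held between 23773 and 23809 counts in the first sham library, and the 2 of Fkbp10 had the same counts in each library. The 3 of Lox had 4139, 4066 and 4042 counts in that library, and the 2 of Plod2, known to differ by an exon that is spliced in or out, 2690 and 2675. A read shared by transcripts was counted for each, so these tables give no measure of splicing. With counts summed over transcripts, 3 of the 10 genes were called, as with 1 transcript per gene.

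To set the enzymes against a substrate without any scaling between libraries, their counts were divided by those of Col1a1 in the same library. Col1a1 encodes the main chain of type I collagen and rose from 9949 and 9011 counts to 46497 and 41441, a log2 fold change of 2.34. The ratio was lower after PNX for 9 of the 10 genes, with a median log2 difference of -1.69 over the 10. The log2 fold change of Col1a1 was itself higher than in 98.18% of the genes tested. Nearly any gene would thus have a lower ratio to it. Serpinh1 went from 239% and 236% of the Col1a1 counts to 86.6% and 87.1%. Per length Serpinh1 stayed above Col1a1 in both groups, with mean FPKM levels of 122 against 26.3 in sham and of 227 against 134 after PNX. P4ha1 went from 53.5% and 54.0% to 11.1% and 11.2%, and Loxl1, which lost least among these 9, from 38.5% and 38.8% to 17.7% in both PNX libraries. P4ha3 was the exception, with 0.352% and 0.233% in sham and 0.297% and 0.290% after PNX, where the PNX libraries lay between the sham libraries. No type IV chain was used as the denominator. Of these, Col4a1 stood at a mean of 142 FPKM in sham and rose less than Col1a1, by a log2 fold change of 0.87.

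**Figure D3:**
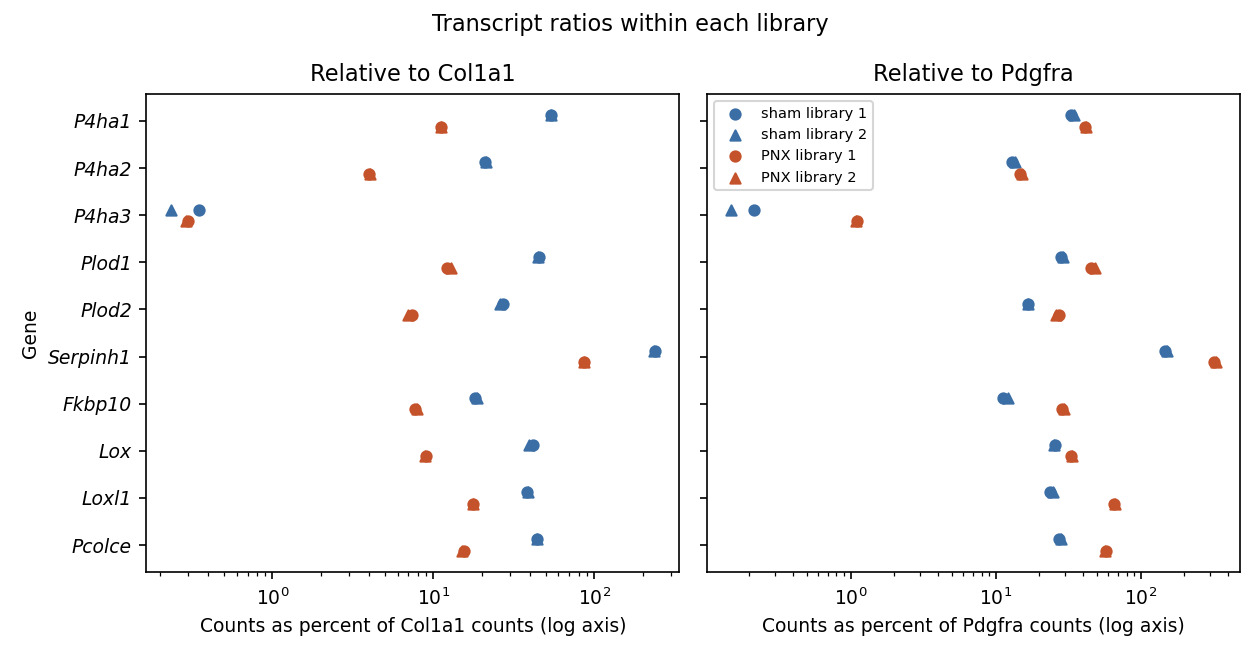
Counts of each gene as a percent of the Col1a1 counts (left) and of the Pdgfra counts (right) in the same library, on log axes, for 2 sham and 2 PNX libraries. Relative to Col1a1 every gene but P4ha3 lies lower after PNX, and relative to Pdgfra all 10 genes lie higher, whereas 5 of 10 do so relative to the sum of 8 fibroblast markers.

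The same was done with Pdgfra, the receptor that marks resident fibroblasts, whose log2 fold change was -0.23 (edgeR adjusted p = 2.4e-15), or 0.03 under the marker scaling. The ratios themselves do not depend on the scaling. All 10 ratios to Pdgfra were higher after PNX, with a median log2 difference of 0.88. Only 23.25% of the genes tested had a log2 fold change below that of Pdgfra, so most genes would have a higher ratio to it. The direction also depended on the marker chosen. Divided by each of the 7 other fibroblast markers, an alternative chosen after seeing the data, 10 ratios were higher for Col13a1, 9 for Tcf21, 5 each for Pi16 and Dpt, 1 each for Dcn and Col14a1 and 0 for Lum. Divided by the sum of all 8 markers, 5 were higher (P4ha3, Serpinh1, Fkbp10, Loxl1 and Pcolce) and 5 lower, with a median of 0.070. Loxl1 went from 23.8% and 25.02% of the Pdgfra counts to 65.6% and 66.6%, Serpinh1 from 148% and 152% to 321% and 328%, and Lox from 25.8% and 25.2% to 33.2% and 33.5%. With 2 libraries against 2 the two-sided exact permutation test cannot give a p under 0.3333, and it gave 0.3333 for 19 of the 20 ratios (0.351 after Benjamini-Hochberg adjustment over the 20) and 1 for P4ha3 to Col1a1.

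Markers of other collagen-making cells moved beside the enzymes, in different ways. Of 8 fibroblast markers 3 were called higher and none lower, with log2 fold changes from -0.23 for Pdgfra to 4.26 for Lum, a proteoglycan of collagen fibrils, and all 8 summed to normalized counts that went from 30760 and 30708 to 45846 and 45935. Of 8 markers of smooth muscle cells and pericytes 1 was called higher, and the sum went from 24653 and 24918 to 32665 and 32550. Of 5 mesothelial markers 4 were called higher. Among all genes tested 5.9% were called higher. No marker in these 3 lists was at or below 3 counts in every library. The part of such cells in the changes of the enzymes was not tested.

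The rest of the collagen machinery was read from 6 lists that hold 34 further genes, of which 33 could be tested. Among these, 4 were called higher and none lower, against 5.9% and 1.66% of all genes. With the threshold on edgeR's adjusted p alone 22 were higher and 6 lower, against 29.3% and 27.8% of all genes. Their median log2 fold change was 0.32. Under the marker scaling 6 were called higher and 0 lower, against 8.19% and 0.518% of all genes. On adjusted p alone 26 were then higher and 2 lower, where the median of all genes was 0.26. With TMM those called were Creb3l1 (log2 fold change 1.12), a transcription factor of secretory cells, Adamts2 (1.78) and Adamts3 (1.43), proteases that remove the N-terminal propeptides, and Loxl2. Tll2, a relative of Bmp1, had 0 to 3 counts per library and was not tested.

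Among the partners of prolyl hydroxylation, P4hb encodes the beta subunit shared by all 3 prolyl hydroxylases and is also a general disulfide isomerase. It rose by a log2 fold change of 0.52 (edgeR adjusted p = 6.36e-35), in contrast to P4ha1 and P4ha2. The 3-hydroxylase Lepre1 (P3h1) and its partner Crtap rose by 0.62 and 0.75. Leprel1 (P3h2) was the lowest of the list of 10, with -0.28 (edgeR adjusted p = 0.00474), or -0.02 (edgeR adjusted p = 0.828) under the marker scaling. Colgalt2, which places galactose on hydroxylysine, was the lowest of the lysyl list, with -0.31 (edgeR adjusted p = 1.54e-11), or -0.05 (edgeR adjusted p = 0.232) under the marker scaling. In the list of chaperones and export the lowest value was that of Mia2, -0.62 (edgeR adjusted p = 0.101), with 14 to 26 counts per library, and reads listed under the gene's other symbol Ctage5 are not in that value.

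Of 5 carriers of the cofactors, genes that transport ascorbate, copper or zinc, none passed the threshold on edgeR's adjusted p upward and 3 did so downward (29.3% and 27.8% of all genes), with a median log2 fold change of -0.18. Slc23a1, an ascorbate transporter, had 142 and 162 counts in sham and 102 and 63 after PNX, a log2 fold change of -0.76 (edgeR adjusted p = 2.09e-05). Slc31a1, which takes up copper, was the highest of the list at 0.06 (edgeR adjusted p = 0.0951). Under scaling to the endothelial markers 2 of the 5 passed the threshold upward and 2 downward. The median of the 5 turned to 0.08, where that of all genes was 0.26. Slc23a1 then stood at -0.50 and Slc31a1 at 0.32.

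**Figure D4:**
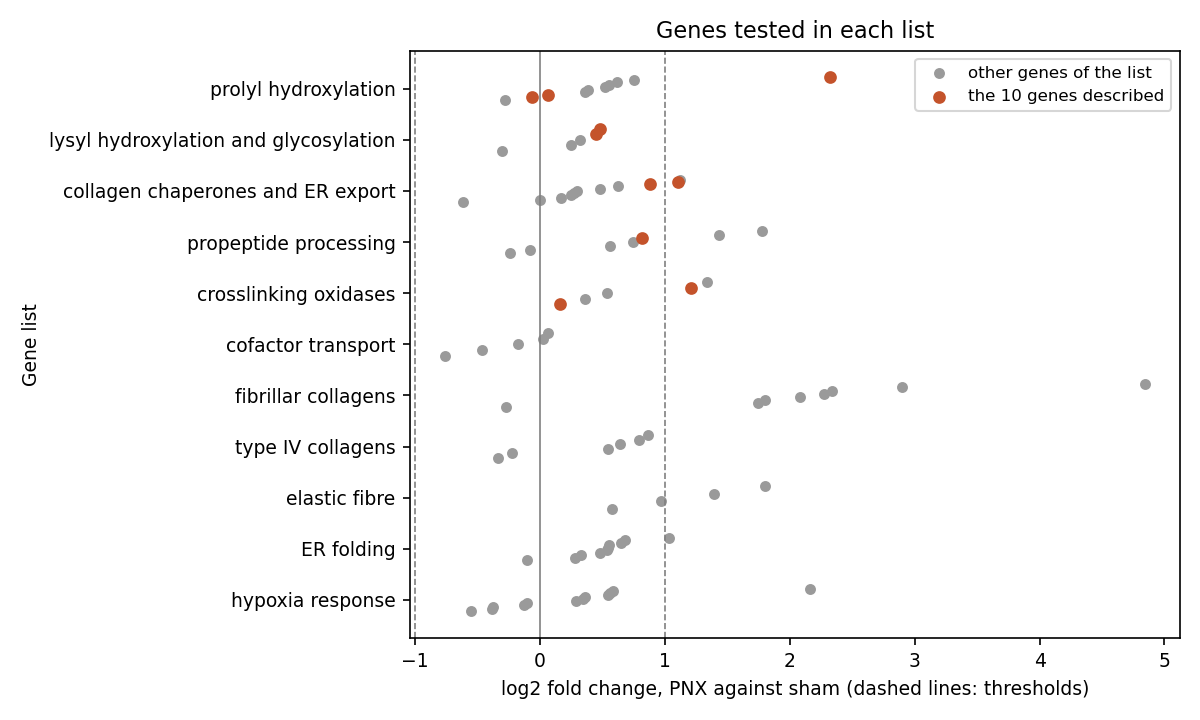
Log2 fold change, PNX against sham, of the genes tested in 11 lists, with the 10 genes described in colour and the other genes in grey. Most fibrillar collagens lie beyond the threshold of 1 and to the right of nearly all the enzymes, cofactor carriers lie near or below 0 (2 of 5 pass upward under the marker scaling), and the point at 4.84 is Col11a1, which had 1 and 0 counts in the sham libraries, so that its position depends on the prior count.

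Set beside other groups of genes, the median of 0.65 of the 10 enzymes lay close to those of several lists. The nearest was that of the 8 fibroblast markers, 0.67, which ranged from -0.23 to 4.26. General folding factors of the endoplasmic reticulum had 0.54 over 10 genes, from -0.11 for Dnajb9 to 1.03 for Sdf2l1. Dnajb9 turned to 0.15 under the marker scaling. Type IV collagens had 0.59 over 6 genes, but this list was split, from -0.34 to 0.87. By edgeR's adjusted p alone 4 of them were higher and 2 lower (4 and 1 under the marker scaling). Of the fibrillar collagens 7 of 8 tested were called higher, where 5.9% of all genes were. These 7 included Col11a1, which passed the filter on low counts only through its 20 and 13 counts after PNX (1 and 0 in sham). Of the type IV collagens 0 of 6 were called higher, of the elastic fibre genes 2 of 4 and of the folding factors 1 of 10. P4ha1, P4ha2, Plod2 and Lox are also known as genes induced by low oxygen, so 12 genes of the hypoxia response were read for comparison. They had no common direction, with 6 higher and 3 lower by edgeR's adjusted p alone (29.3% and 27.8% of all genes). The range was from -0.55 for Bnip3 to 2.16 for Egln3, with a median of 0.31. Under the marker scaling 8 were higher and 2 lower, where the median of all genes was 0.26. The differences between these lists were not tested.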

How the data were processed

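RNA of lung EC preparations was measured in 4 libraries. Per the paper's methods, reads from both ends of strand-specific mRNA libraries were aligned to mm10. STAR is named in the submitters' processing notes, and the counting program and its use of strand are not given in the sources used here. The authors deposited counts per RefSeq transcript without normalization, FPKM and TPM (not used). Deposited FPKM served for levels between genes. For each symbol the transcript with the most counts over all libraries was used. Counts were tested in R 4.3.3 with edgeR 4.0.16 (filterByExpr, TMM factors from 0.9985 to 1.0026, quasi-likelihood F test, no covariates). Normalized counts are scaled to the mean library size, a standard error is the log2 fold change divided by the square root of F, and ratios within a library used 0.5 added counts on the log2 scale. The steps were tested on simulated data.

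The members and lists were chosen with earlier results of these data known. All 10 members are named, with up to 25 genes of the other lists, those highest, lowest or called first. Ctage5, Col11a1, Xist, B430319G15Rik, Nt5c3b and the fibroblast markers beside Pdgfra and Lum were named after their values were seen. The mean chi-square per gene between the libraries of sham was 1.76 and of PNX 1.52, above the value of counting noise, and all were kept as separate libraries. That they are independent pools rests on the paper's methods and cannot be shown by these values. Libraries of the 2 groups with the same replicate number gave 133 and 118. The p-values thus rest on a spread not far above counting noise. Alternatives were other scalings, filters, thresholds, DESeq2 1.42.0, a replicate block, summed transcripts, other fibroblast markers as denominators and libraries left out.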

Additional observations from a re-analysis of the deposited data

How the results depend on the processing

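Of the 10 genes, 3 were called under every alternative except the scaling to endothelial markers, which called 5, and edgeR's glmTreat, which called 2. Under the marker scaling the median log2 fold change of the 10 genes was 0.91, P4ha2 turned to 0.20, and Serpinh1 (1.14) and Pcolce (1.08) passed the fold threshold; it also raised the share of higher genes among all calls from 78.1% to 94.1% by its shift of all values. With each library left out in turn the median of the 10 genes ranged from 0.64 to 0.67, 3 genes were called each time, and all kept their direction. The 34 further genes gave 4 calls, 6 under the marker scaling and 3 under glmTreat, and without PNX replicate 1 also 1 lower call. Over all genes glmTreat left 604 higher and 39 lower of the 957 and 269, DESeq2 gave 825 and 188, and a mean of at least 50 counts 719 and 160.

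The libraries share the replicate numbers 1 and 2 but come from different mice, and the deviations of libraries with the same number were hardly correlated (r = 0.023 over genes). With the number as a replicate block, 3 of the 10 genes and 4 of the others were called, with a median of 0.65. The median log2 ratio of the 10 genes, 0.88 with Pdgfra as denominator, was 0.79 with Col13a1, 0.63 with Tcf21, 0.015 with Pi16 and 0.070 with the sum of 8 fibroblast markers, and reversed to -0.058 with Dpt, -0.86 with Col14a1, -1.66 with Dcn and -3.66 with Lum. Depth limited P4ha3 most, with 21 counts in its lower sham library. With 2 libraries per group, each a pool, the data give no measure of the spread between mice.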
